A study of Homo sapiens with 20 samples.

Results

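The response of wild-type cells to interferon gamma (IFNγ) was read from 5 WT clones of the osteosarcoma cell line U2OS, named WT1, WT3, WT4, WT5 and WT6. Each clone gave 1 untreated library and 1 library after 24 h with 250 U/ml IFNγ, so 10 of the 20 libraries of the series entered and were paired by clone name. The other 10 libraries came from ZBTB48 KO clones grown with and without IFNγ. All cells were U2OS, the WT genotype is the one the labels give, and each replicate was a separate clonal line. With the clones paired, p values rest on the fitted spread of responses between clones and not on differences in level between them. Of 43366 genes in the count table, 19522 had enough counts to be tested. Levels are given as CPM, the count scaled to library size with TMM factors, and 3 counts, taken as the floor, came to 0.0411 to 0.0643 CPM.

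IFNγ binds a receptor made of the IFNGR1 and IFNGR2 chains, whose kinases JAK1 and JAK2 start a signal to the nucleus that acts on gamma-activated sites. One early target is the transcription factor IRF1, which with its relatives binds interferon-stimulated response elements in a second wave of genes. CIITA, a coactivator made in that wave, switches on the MHC class II genes, which cells outside the immune system otherwise keep silent. In most cells the same signal raises MHC class I and its peptide supply, guanylate-binding proteins, chemokines for T cells and the tryptophan-degrading enzyme IDO1.

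Stretches upstream of the start sites of 11 genes are shown because the genes stand for the kinds of rise described here and each stretch holds a motif of the factors above. They were taken from RefSeq promoters on GRCh38.p14 and are written 5′ to 3′ on the gene's strand, with the match in capitals. The gamma-activated site was searched as TTCNNNGAA, the interferon-stimulated response element as a pair of GAAA blocks with any 2 bases between, and the C/EBP-ATF response element, the site of the amino acid stress factor ATF4, as TGATGNAA, each on both strands. IRF1 lies at chr5:132490849-132490937 (minus strand) and holds the gamma-activated site. The response element of interferon marks CXCL9 at chr4:76007631-76007720 (minus strand), CXCL10 at chr4:76023669-76023747 (minus strand), TAP1 at chr6:32853783-32853878 (minus strand), PSME2 at chr14:24146611-24146678 (minus strand), PSMB10 at chr16:67936851-67936911 (minus strand), IFIT3 at chr10:89327801-89327924 (plus strand) and B2M at chr15:44711333-44711428 (plus strand). In TAP1 and B2M 2 matches overlap into 1 longer run, and in IFIT3 2 matches lie apart. The ATF4 site marks CHAC1 at chr15:40953222-40953309 (plus strand), ASNS at chr7:97872429-97872516 (minus strand) and FGF21 at chr19:48755430-48755517 (plus strand).
IRF1: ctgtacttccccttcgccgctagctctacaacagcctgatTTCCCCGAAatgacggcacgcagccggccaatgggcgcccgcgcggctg
CXCL9: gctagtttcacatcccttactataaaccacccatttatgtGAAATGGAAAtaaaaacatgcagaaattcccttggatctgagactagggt
CXCL10: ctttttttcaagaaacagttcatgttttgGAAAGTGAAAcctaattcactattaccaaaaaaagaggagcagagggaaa
TAP1: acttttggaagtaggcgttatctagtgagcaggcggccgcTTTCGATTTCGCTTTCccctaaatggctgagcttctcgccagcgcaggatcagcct
PSME2: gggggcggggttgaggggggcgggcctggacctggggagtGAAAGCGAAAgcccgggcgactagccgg
IFIT3: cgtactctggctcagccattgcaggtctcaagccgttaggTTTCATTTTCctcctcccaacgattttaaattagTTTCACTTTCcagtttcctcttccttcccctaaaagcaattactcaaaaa
PSMB10: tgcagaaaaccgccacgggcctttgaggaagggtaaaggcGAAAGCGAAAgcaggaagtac
B2M: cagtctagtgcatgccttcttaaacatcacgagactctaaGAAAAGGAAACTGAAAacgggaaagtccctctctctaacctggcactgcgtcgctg
CHAC1: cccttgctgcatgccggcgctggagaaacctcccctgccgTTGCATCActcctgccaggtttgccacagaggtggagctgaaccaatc
ASNS: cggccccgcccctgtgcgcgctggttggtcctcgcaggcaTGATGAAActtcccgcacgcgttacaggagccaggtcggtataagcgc
FGF21: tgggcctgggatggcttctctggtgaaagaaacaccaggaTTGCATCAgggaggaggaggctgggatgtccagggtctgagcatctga

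After IFNγ, 867 genes were called higher and 547 lower, where a call needed an adjusted p under 0.01 in edgeR's paired test and a change of more than 2-fold. These were 4.44% and 2.8% of the genes tested (7.24% in either direction). Rises were larger than falls: 72 genes rose over 32-fold by the fitted change, while 54 fell over 4-fold and 8 over 8-fold. The treated and untreated libraries did not overlap for 610 of the genes called higher and 193 of those called lower. Over all genes tested, called or not, they did not overlap for 1385 higher and 759 lower genes (10.98%). Genes called higher made up 1.74 ± 0.137% of all counts before and 6.86 ± 0.701% after IFNγ (SD, n = 5), and genes called lower 1.16 ± 0.0977% and 0.434 ± 0.042%. Without the cut-off on size, 17.2% of genes passed as higher and 17.1% as lower. When the clones were not paired, the calls fell to 485 higher and 100 lower, 479 and 99 of them shared with the paired fit.

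Total counts per library ran from 46652288 to 58996488 untreated and from 55375709 to 72952859 treated. Of 8 mesenchymal markers all 8 were expressed, VIM at 1330.2 and FN1 at 3592 CPM untreated, and ALPL alone was called. The 8 blood cell markers summed to 1.13 to 1.8 CPM per library. The 6 epithelial markers summed to 4.43 to 19 CPM, and 1 of them, the splicing factor ESRP1, was called higher, from 0.101 to 2.26 CPM. None of 11 interferon ligands had enough counts to be tested, and their highest count in a library was 11 untreated and 13 treated. ZBTB48, the gene knocked out in the KO clones, stood at 8.8, 7.95, 8.86, 9.3 and 9.14 CPM in untreated WT1, WT3, WT4, WT5 and WT6 and at 11.2, 9.67, 8.85, 11.7 and 9.31 CPM in the same clones after IFNγ (adjusted p = 0.108). In bulk RNA, a rise in every cell and a larger rise in some cells cannot be told apart, nor can fewer cells and less RNA per cell.

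The rises fell into classes of size that differed in where the genes started. Of the 867 genes, 497 had a log2 fold change of 1 to 2, 187 of 2 to 3, 114 of 3 to 5, 41 of 5 to 7 and 28 of over 7. For 3 genes with no count in any untreated library the class was set by the lower bound against 3 counts per library. The median untreated level dropped from 4.35 CPM in the smallest class to 0.0689 CPM in the largest, where the median treated level was 63.9 CPM. Falls were nearly all small, with 493 of 547 between 2- and 4-fold, 46 between 4- and 8-fold and 8 between 8- and 32-fold. A fold measured from a low level is limited by counting: 15 of the genes called higher had 3 counts or fewer in every untreated library. They were all 15 such genes tested, since genes this low enter the test only through their treated libraries. A very large fold also needs a low start. The drop in untreated level over the classes is thus in part fixed by the filter and the ratio.

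**Figure D1:**
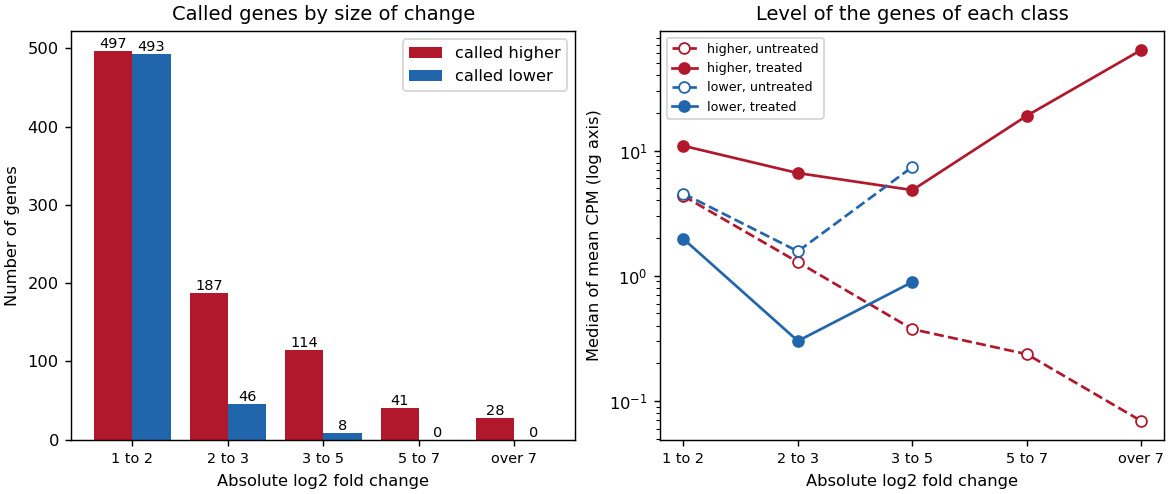
Left, number of genes called higher (red) or lower (blue) in each class of absolute log2 fold change. Right, the median over the genes of a class of their mean CPM, on a log axis, untreated (open points, dashed) and treated (filled points): 28 genes in the highest class started from a median of 0.0689 CPM.

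The largest rises were in genes that were close to silent without IFNγ. IDO1, which breaks down tryptophan, had 0.0498, 0, 0.142, 0 and 0 CPM in untreated WT1, WT3, WT4, WT5 and WT6 and 686, 694, 1124, 678 and 715 CPM in the same clones after IFNγ. Its treated level was highest in WT4 and the other four clones lay close together (log2 fold change 14.33, SD of clone responses 0.18, adjusted p = 6.49e-08). GBP5, a guanylate-binding protein, went from 0.0498, 0.0874, 0.142, 0 and 0.0525 CPM to 1028, 703, 1019.7, 785 and 530.4 CPM in that clone order (log2 fold change 13.59, adjusted p = 6.87e-10). The T-cell chemokine CXCL10 went from 0, 0, 0.0203, 0.0642 and 0 CPM to 137, 47, 169, 439 and 42.7 CPM, with WT5 highest and WT3 and WT6 lowest (log2 fold change 13.09, adjusted p = 9.93e-14). CXCL9, its neighbour in function, went from 0, 0, 0, 0.0964 and 0 CPM to 97, 35.7, 60.8, 495 and 89.8 CPM, and WT5 was again highest (log2 fold change 12.79, adjusted p = 2.49e-13). In none of these genes did treated and untreated libraries overlap. The folds rest on 10, 18, 5 and 6 untreated counts over the 5 libraries, so the size of the fold is loosely set. The treated levels of CXCL10 and CXCL9 were uneven too, at 167 ± 162 CPM and 156 ± 191 CPM (SD, n = 5). The p values of CXCL10, CXCL9 and CD74 rest on fitted standard errors of 0.14, 0.156 and 0.19, below the standard errors of their clone responses of 0.593, 0.586 and 0.403, so these p values understate the spread between clones. The rest of the 10 largest separated rises were CD74, GBP4, HLA-DRA, the galectin pseudogene LGALS17A, the apoptosis factor XAF1 and HLA-DRB1, with log2 fold changes from 9.96 to 11.64.

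**Figure D2:**
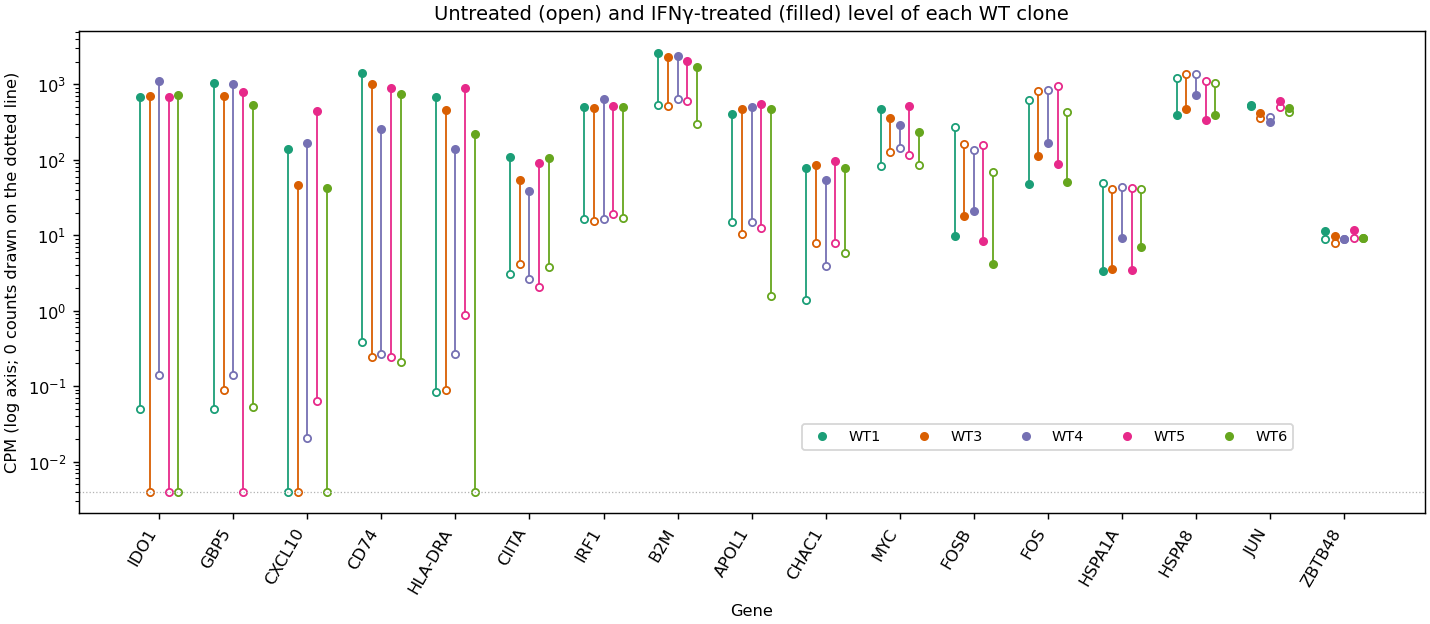
CPM on a log axis of 17 genes in each WT clone, untreated (open) and after IFNγ (filled), joined by a line per clone, with 0 counts drawn on the dotted line. IDO1 rose to between 678 and 1124 CPM, FOS fell in all 5 clones, and JUN and ZBTB48 moved little.

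Of the IFNγ receptor chains and their kinases JAK1 and JAK2, JAK2 alone was called. Of the list of receptor, JAK-STAT and feedback genes, 5 of 20 members tested were called higher, none lower, and the median log2 fold change was 0.26 against -0.03 over all genes tested. IFNGR1 went from 42.3 ± 6.51 CPM to 58 ± 9.08 CPM (SD, n = 5) and did not reach 2-fold (log2 fold change 0.44, adjusted p = 6.98e-05), and IFNGR2 had a log2 fold change of -0.02 (adjusted p = 0.886). JAK1 had -0.08, while JAK2 rose 3.65-fold. STAT2 rose 3.45-fold, and 2 inhibitors of the pathway rose, SOCS1 4.92-fold and USP18 4.27-fold. SOCS3 and CISH, inhibitors that other cytokines also use, had log2 fold changes of -0.89 and -0.88 and missed the 2-fold cut-off.

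Among interferon regulatory factors and related transcription factors, 12 of 19 members tested were called higher and none lower. IRF1 stood at 16.3, 15.3, 16.5, 19 and 17.1 CPM untreated and 509, 484, 631, 515 and 497 CPM treated, a rise that was close to even over the clones (log2 fold change 4.96, SD of clone responses 0.19, adjusted p = 3.8e-12). BATF2 rose from 0.538 ± 0.313 CPM to 268 ± 43.5 CPM, IRF8 9.01-fold and IRF9, a partner of STAT2, 4.81-fold. IRF7, low at 0.335 CPM untreated and 0.268 CPM treated, was not called (log2 fold change -0.46, adjusted p = 0.465).

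MHC class II genes rose further than class I genes and differed more between clones. Of the list of CIITA, CD74, the HLA class II genes and RFX5, 12 of 14 members tested were called higher, with a median log2 fold change of 6.41. CIITA (chr16:10866206-10943021, plus strand, GRCh38) stood at 3.1, 4.21, 2.61, 2.09 and 3.78 CPM in untreated WT1, WT3, WT4, WT5 and WT6 and at 111, 54.8, 38.4, 90.3 and 107 CPM after IFNγ (log2 fold change 4.59, adjusted p = 0.000311). WT4 and WT3 were its lowest treated clones. CD74, the invariant chain that guards class II molecules before they load peptide, rose from 0.382, 0.245, 0.263, 0.241 and 0.21 CPM to 1423, 1022, 255, 887 and 751 CPM, and HLA-DRA from 0.083, 0.0874, 0.263, 0.867 and 0 CPM to 674, 462, 141, 891 and 219 CPM. In both genes treated WT4 was the lowest, although it still lay far above every untreated library. Summed over the list, the treated level was 2846, 2031, 635, 2718 and 1450.1 CPM, so the highest clone, WT1, exceeded WT4 4.48-fold. The untreated sums were within 1.25-fold of each other, but RFX5 made up most of them (65.3 ± 5.33 of 78.4 ± 8.57 CPM, SD, n = 5). That narrow range therefore does not describe the class II genes before IFNγ. With 1 clone left out, 12 members were called without WT3 and 11 without each of the other four. HLA-DPB1 missed the cut-off at an adjusted p of 0.0127, and was called by DESeq2's paired test. Its untreated level was 0.631, 0.262, 0.75, 6.57 and 4.55 CPM in the clone order above, and its response ran from 2.67 in WT6 to 6.76 in WT3 (log2). RFX5, which binds class II promoters, had a log2 fold change of 0.56. Class II genes are variable and alike between loci, so counts of single members depend on how the reads were assigned, and HLA-DPB1 and HLA-DPA1, like CIITA and DEXI, overlap on opposite strands.

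Of the class I and peptide loading genes, 13 of 16 members tested were called higher, with a median of 2.26. B2M, the light chain of all class I molecules, stood at 534, 522, 633, 601 and 299.8 CPM untreated and 2593, 2317, 2345, 2046 and 1719.8 CPM treated (log2 fold change 2.11, adjusted p = 7.48e-06). Both its lowest values were in WT6. HLA-B rose 4.79-fold and HLA-E, which presents signal peptides to natural killer cells, 13.5-fold. TAP1, a subunit of the peptide transporter, rose 22-fold and NLRC5, the class I counterpart of CIITA, 12.7-fold. The general chaperones CALR and CANX had log2 fold changes of -0.36 and -0.00. The immunoproteasome subunits that replace the usual ones rose, PSMB8 7.38-fold, PSMB9 34.4-fold and PSMB10 13.9-fold, as did the activator subunits PSME1 and PSME2, while the 6 other proteasome genes of the list had log2 fold changes from 0.31 to 0.88 and none was called. The call of PSMB9 depended on single clones (adjusted p = 0.00196, and 0.0121 without WT1 and 0.0119 without WT5). TAP1 and PSMB8 share exon sequence with PSMB8-AS1 on the opposite strand, and whether counting used the strand is not given in the sources used here.

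Of the list of guanylate-binding proteins, which attack the vacuoles of intracellular pathogens, 6 of 7 members tested were called higher with a median of 7.35. The tested member not called was IRGM, which is not a guanylate-binding protein (0.215 CPM untreated and 0.224 CPM treated). The summed level of the list went from 12.3, 9.67, 17.8, 15.4 and 7.02 CPM untreated to 2637, 2296, 2692, 3111 and 2074 CPM treated. Every clone rose, and the treated clones differed by up to 1.5-fold. Of the chemokines and cytokines, 15 of 20 members tested were called higher, CXCL11 among them at 207 ± 169 CPM treated and the B-cell factor TNFSF13B at 24.6 ± 12.1 CPM (both SD, n = 5). CCL2 and CCL5 were not called (log2 fold changes -0.24 and 1.63). IL6, made by many stromal cells, was called higher with a log2 fold change of 1.78. Of the tryptophan list, IDO1, KMO and WARS1 were called higher out of 7 tested. WARS1, the enzyme that charges tryptophan onto its tRNA, rose 31.9-fold from 78.3 ± 16 CPM to 2481 ± 195 CPM.

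Of the antiviral genes, 38 of 47 members tested were called higher and none lower, with a median of 2.74. XAF1, IFITM1 and IFI35 had the largest changes, with log2 fold changes of 10.77, 8.16 and 7.65. ISG15, a ubiquitin-like modifier, rose 10.6-fold. MX1, widely used as a marker of type I interferon, had a log2 fold change of 0.00 (adjusted p = 0.988). It stood at 1.2 CPM untreated and 1.19 CPM treated, while MX2 had a log2 fold change of 3.82. IFIT1, another such marker, passed the 2-fold cut-off narrowly with a log2 fold change of 1.03, IFIT2 missed the call (log2 fold change 2.90, adjusted p = 0.0181) and IFIT3 rose with 5.58. All 5 tested genes of the apolipoprotein L family were called higher, with a median of 5.63, and of the complement list 9 of 14 members tested were called, C1S 18.7-fold, C1R 3.92-fold and C3 4.9-fold. Without pairing the clones, 4 members of the complement list were called. C4A and C4B are near-identical, so their rises (log2 fold changes 2.20 and 2.22) cannot be told apart. CFB rose as well (adjusted p = 0.00198, and 0.0117 without WT1 and 0.0124 without WT4).

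Among genes that regulate T cells or cell contact, 9 of 15 members tested were called higher, with the checkpoint ligands CD274 12.7-fold, PDCD1LG2 18.3-fold and LGALS9 50.0-fold higher. The adhesion molecule ICAM1, low at 0.505 CPM untreated and 0.306 CPM treated, had a log2 fold change of -0.64 (adjusted p = 0.288). Of the caspases and death genes 6 of 20 members tested were called, led by the inflammatory caspases and their sensor. CASP1 rose 44.6-fold, CASP4 4.44-fold and AIM2 26.2-fold. AIM2 reached 7.22, 0.419, 1.27, 0.766 and 1.75 CPM treated in WT1, WT3, WT4, WT5 and WT6, from 20 untreated counts in all. It shares exon sequence on the opposite strand with IFI16, which was also called higher (92.2 CPM untreated and 204 CPM treated). Of the cathepsins and lysosomal genes 5 of 17 members tested were called, CTSS, which trims the invariant chain, 109.8-fold. Another 6 had an adjusted p under 0.01 with smaller falls, against 17.1% of all genes, and the median was -0.10. Over the 14 interferon lists together, 143 of 232 members tested were called higher and 0 lower, against 4.44% of all genes called higher. Some members passed the filter on counts only through their treated libraries, so the count over tested members is not one over all 253 members.

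Genes known to respond to a shortage of amino acids rose as well. Of the list of endoplasmic reticulum and amino acid stress genes, 10 of 18 members tested were called higher and 1 lower, with a median of 1.14. The members called higher were mostly ATF4 and genes known as its targets. ATF4 itself rose 2.23-fold to 829.8 ± 144 CPM. CHAC1, which degrades glutathione, stood at 1.38, 7.92, 3.93, 7.98 and 5.76 CPM untreated and 78.5, 85.1, 54.2, 95.6 and 79 CPM treated (log2 fold change 3.96, adjusted p = 0.00132). WT1 started lowest and the treated clones lay between 54.2 and 95.6 CPM. TRIB3 rose 13-fold, DDIT4 8.12-fold, ASNS, which makes asparagine, 6.76-fold, SESN2 6.66-fold and PSAT1, of serine synthesis, 4.06-fold. No chaperone of the endoplasmic reticulum in the list was called higher: HSPA5 had a log2 fold change of -0.13, HSP90B1 -0.22 and HYOU1 -0.22, and SDF2L1 was called lower (-1.01), a call that was lost without WT1, WT5 or WT6. XBP1 and HERPUD1, which the unfolded protein response also uses, were called higher (1.12 and 1.95).

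Outside all lists, 700 of 19051 genes tested were called higher and 537 lower. The 5 called genes outside the lists with the highest treated level per length, given as TPM, were all called higher: S100A2 (1563 TPM), GARS1 (959 TPM), SLC1A5 (787 TPM), SLC3A2 (704 TPM) and SLC7A5 (591 TPM). Of these, 3 carry amino acids into the cell and GARS1 charges glycine onto its tRNA. SLC7A5 rose 2.9-fold, its partner chain SLC3A2 3.18-fold and the glutamine transporter SLC1A5 3.72-fold, each in 5 of 5 clones. The hormones FGF21 and INHBE, chosen after the values were seen, rose from 0, 0.996, 0.0608, 4.79 and 0.963 CPM to 21.7, 18.4, 4.28, 64.1 and 19.4 CPM and from 0.282, 2.74, 0.385, 8.21 and 1.68 CPM to 37.2, 71.9, 8.97, 101 and 31.7 CPM. Both had their largest treated value in WT5 and their smallest in WT4. The call of FGF21 did not hold without single clones (adjusted p = 0.00421, and 0.0175 without WT3, 0.0183 without WT4, 0.0146 without WT5 and 0.0179 without WT6).

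The largest rises outside the lists that reached at least 10 CPM, a rule made after the values were seen, included the receptor chain IL12RB1 (log2 fold change 8.79), the phospholipase PLAAT4 (8.28), the actin-binding XIRP1 (7.62) and the adhesion molecule CEACAM1 (5.86). ACSL5, a fatty acid ligase, was also among them, with a call lost at an adjusted p of 0.0113 without WT4. OR2I1P, a pseudogene that rose to 10.5 ± 10.7 CPM, shares exon sequence with UBD on the opposite strand. By type of gene, 188 of 3809 long noncoding RNAs (4.94%) and 633 of 14602 protein-coding genes (4.34%) were called higher, both near the 4.44% over all genes.

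NF-kappaB targets and immediate-early genes moved in part. Of the NF-kappaB list 6 of 17 members tested were called higher and none lower, and 14 had an adjusted p under 0.01 with a rise of any size, against 17.2% of all genes. The signalling adaptor TRAF1 rose 14.2-fold, BIRC3 4.56-fold and CCL20 3.98-fold. Of 28 immediate-early genes, 4 were called higher and 3 lower, against 4.44% and 2.8% of all genes. MYC stood at 83.8, 129, 143, 116 and 86.6 CPM untreated and 471, 359, 293, 519.9 and 233 CPM treated in the clone order above (log2 fold change 1.71). Every clone rose, but the call was lost when single clones were left out (adjusted p = 0.00456, and 0.0154 without WT3, 0.0165 without WT5 and 0.0176 without WT6). FOSL1, ATF3 and DUSP5 were the others called higher, FOSL1 with an adjusted p of 0.002, and 0.0132 without WT1.

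FOS and FOSB, which form the AP-1 factor with JUN proteins, were among the 10 largest separated falls. FOSB fell from 273, 163, 136, 155 and 69.4 CPM to 9.76, 17.9, 21, 8.3 and 4.18 CPM (log2 fold change -3.77, adjusted p = 0.00186, and 0.0108 without WT5 and 0.0113 without WT6), and FOS from 616, 827, 834, 948 and 428 CPM to 47.6, 111, 167, 87.2 and 50.4 CPM (log2 fold change -3.10, adjusted p = 0.000423). The groups did not overlap, and treated WT4 kept the highest level of both genes. JUN had a log2 fold change of 0.08 (adjusted p = 0.369) and EGR1 of -0.49. BTG2 was the remaining member called lower (log2 fold change -1.14), and the median of the list was 0.07.

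Some heat-shock genes fell, fewer of them without pairing the clones (3 called). Of 22 members 5 were called lower and none higher, and 13 had an adjusted p under 0.01 with a fall of any size, against 2.8% and 17.1% of all genes. HSPA1A, the inducible 70-kDa chaperone, fell from 49.6, 40.7, 43.4, 42 and 41 CPM to 3.32, 3.59, 9.18, 3.44 and 6.93 CPM (log2 fold change -3.13, adjusted p = 0.000869). Its untreated level hardly differed between clones, and after IFNγ WT4 and WT6 kept the most. HSPA1B, a near-identical copy whose reads cannot be fully told apart from it, had a log2 fold change of -2.56. HSPA8, the constitutive family member, fell 2.73-fold from 1232, 1353, 1359, 1108 and 1037 CPM to 396, 465, 715, 340.1 and 394 CPM. CRYAB fell 2.78-fold and DNAJB4 2.11-fold, but their libraries overlapped between groups. HSP90AA1, HSP90AB1 and HSPD1 had log2 fold changes of 0.05, -0.07 and -0.03.

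The other large falls, all in 5 of 5 clones, were in genes of varied function. CD180, a Toll-like receptor relative, fell 11.2-fold from 6.85 ± 2.18 CPM, and FMNL2, which elongates actin filaments, 6.82-fold from 24.5 ± 8.71 CPM. RAB3A, of vesicle release, fell 5.88-fold, and LINC01992, LOC105374666 and CGB8, one of several alike chorionic gonadotropin genes, reached at most 1.36 CPM in any library. LOC105374666 was not called with all 20 libraries (adjusted p = 0.0121). Among falls from at least 5 CPM outside the lists, a rule made after the values were seen, were the receptor EPHB3 (4.45-fold), the MYC relative MYCL (4.39-fold), GAS1 (4.07-fold) and the collagenase MMP13. MMP13 went from 2.86, 0.612, 1.05, 55.2 and 8.24 CPM to 0.187, 0.0671, 0.244, 5.48 and 2.01 CPM, so 1 clone, WT5, held most of it before and after. POSTN, a matrix protein, was the 1 member called lower among 23 collagen and matrix genes (from 1.57 ± 1.78 CPM to 0.308 ± 0.308 CPM). COL1A1 had a log2 fold change of -0.62 and COL3A1 of -0.94. In this list 12 members had an adjusted p under 0.01 with falls of any size, against 17.1% of all genes.

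The proliferation genes of the lists moved by less than 2-fold. Of 26 DNA replication genes and 25 mitosis genes none was called, and the medians were 0.05 and -0.31. In the mitosis list 17 members had an adjusted p under 0.01 with falls short of 2-fold, against 17.1% of all genes with falls of any size. They included KIF20A (-0.96), CDC20 (-0.79) and PLK1 (-0.59), while CDK1 had -0.11. Of the p53 targets GDF15 alone was called, higher (adjusted p = 0.00704, and 0.0331 without WT1, 0.0218 without WT3 and 0.0261 without WT6). CDKN1A, the cell cycle inhibitor p21, had a log2 fold change of -0.03 (adjusted p = 0.869). Of 16 p53 targets tested, 8 had falls short of 2-fold at an adjusted p under 0.01, against 17.1% of all genes. Rises of any size passed for 2, GDF15 among them, against 17.2%, and the median was -0.24. No cholesterol synthesis gene was called, although 16 of 23 had smaller falls at an adjusted p under 0.01, against 17.1% of all genes (median -0.30). HK2 was the 1 glycolysis gene of 19 called (3.77-fold higher) and ALPL the 1 osteoblast gene of 12 (2.37-fold higher).

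**Figure D3:**
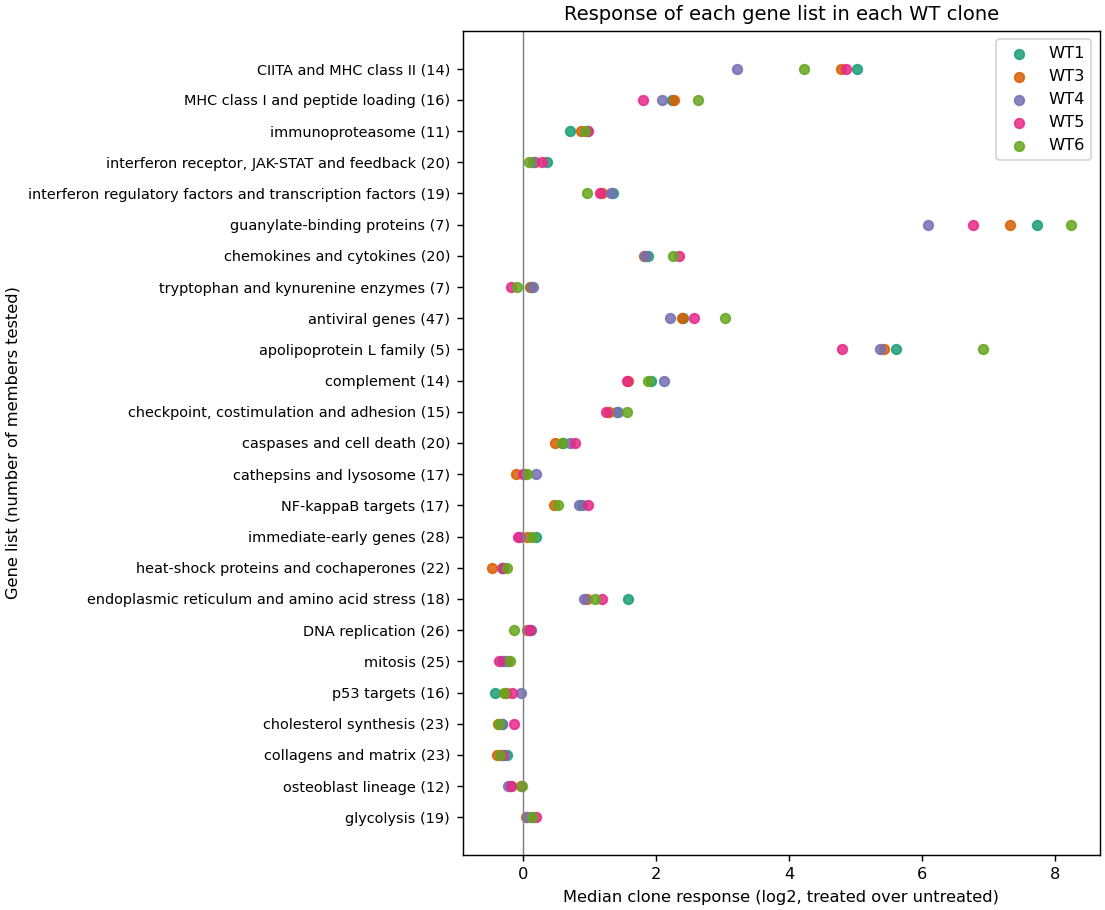
Median log2 response of the tested members of 25 gene lists (number in brackets) in each WT clone, 1 point per clone, with 0 as no change. The class II list ran from 3.21 in WT4 to 5.02 in WT1, and the mitosis list was below 0 in all 5 clones.

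The genes called higher in the interferon lists rose in every clone, by amounts that differed between clones. A clone's response is the log2 of its treated over its untreated CPM, each with 0.5 CPM added, which shrinks the response of genes near 0. Of the 143 interferon-list genes called higher, all rose in 5 of 5 clones and 89.5% rose over 2-fold in every clone. Of all 232 interferon-list genes tested, 56% rose over 2-fold in every clone and 81% rose in all 5. Genes that fell in every clone are not counted in these shares. Over all genes called higher, 387 of 867 (44.6%) rose over 2-fold in every clone, and of those called lower 77 of 547 (14.1%) fell over 2-fold in every clone, though 99.1% and 98% kept 1 direction in all 5. A call on the mean over clones itself favours 1 direction. Of the sum of squares of log2 CPM over all genes tested, 55.6% went with the clone, 38.1% with IFNγ and 6.3% with neither. Over 229 genes of the other lists the shares were 44.4%, 51.9% and 3.8%, and over the 232 interferon-list genes 7.5%, 90.6% and 2.0%. The interferon lists were chosen with earlier results of these data known, and some members passed the count filter only through treated libraries. A large share with IFNγ was therefore in part fixed beforehand. Set against the mean of the other four clones across these 232 genes, the responses had slopes through 0 of 1.02, 0.97, 0.90, 1.03 and 1.04 in WT1, WT3, WT4, WT5 and WT6. With 1 library per clone and treatment, a difference between clones has no test.

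WT6 was most often the lowest clone before IFNγ and most often the clone with the largest response. Over the same 143 genes its untreated level was the lowest of the 5 clones in 69 and its response the highest in 61. The median difference of WT6 from the mean of the other clones was -0.41 untreated, -0.16 treated and 0.26 for the response (log2). WT5 had the highest treated level in 59 genes, with a median difference of 0.27. For the response, WT4 had the lowest median difference, -0.18. It was the lowest clone in 35 genes, as was WT5, and the highest in 14. A response holds the untreated level in its denominator, so a low start and a large response are not separate measurements. The median SD over clones was 0.43 untreated, 0.40 treated and 0.43 for the response, and in 80 of the genes the clones lay closer together after IFNγ than before.

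**Figure D4:**
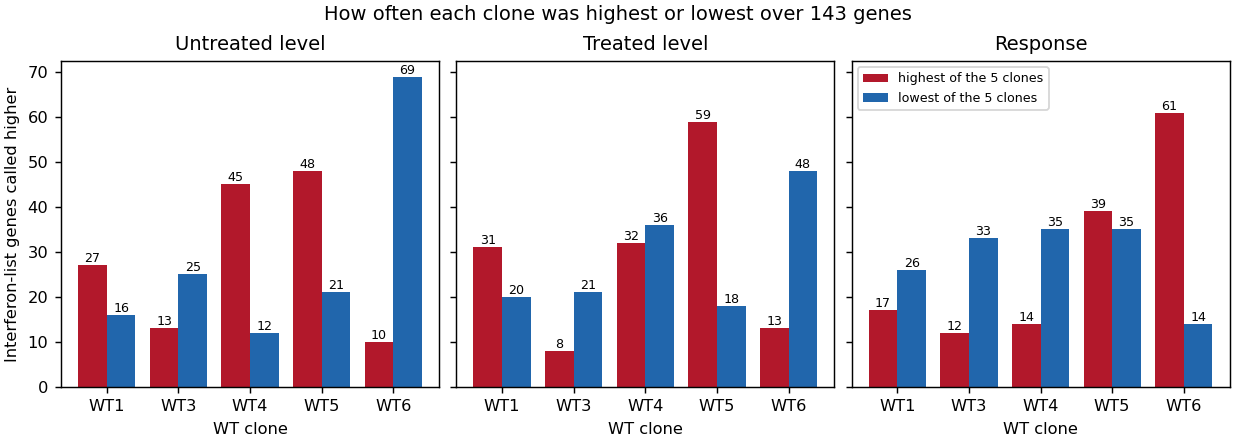
Number of the 143 interferon-list genes called higher for which each WT clone had the highest (red) or lowest (blue) value, for the untreated level, the treated level and the response. WT6 was lowest untreated in 69 genes and had the highest response in 61.

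Single genes ranged from near-equal to widely spread responses. Among 117 genes that rose over 4-fold from at least 1 CPM in every untreated library, the 5 most even were DTX3L, HERC6, PSMB10, HMCN1 and PSME2, with SDs of clone responses from 0.07 to 0.11 (log2). DTX3L, a ubiquitin ligase, stood at 75.4, 65.9, 56.7, 60.2 and 52.5 CPM untreated and 423, 405, 338, 361 and 337 CPM treated. PSMB10 stood at 20.5, 21.9, 22.3, 18.9 and 19.9 CPM and 294, 281, 331, 257 and 285 CPM. In both genes the treated level stood in nearly the same ratio to the untreated one in every clone. The 5 least even were TXNIP, IFI44L, IFIT3, PSMB9 and APOL1, with SDs from 0.90 to 1.25. APOL1, a trypanosome-killing lipoprotein, had 14.9, 10.3, 15.2, 12.6 and 1.58 CPM untreated and 407, 465, 499, 552 and 478 CPM treated, so the clones met at a like level after IFNγ from a start that in WT6 was far lower. Its call was lost without some clones (adjusted p = 0.00229, and 0.0105 without WT3, 0.0124 without WT4 and 0.0141 without WT5). PSMB9 had 11.1, 15.2, 25.5, 19.1 and 2.59 CPM and 399, 428, 454, 533 and 398 CPM and IFIT3 2.92, 5.84, 12.4, 3.08 and 1.1 CPM and 158, 168, 277, 224 and 209.8 CPM, and in both, as in IFI44L, WT6 was the lowest untreated clone. TXNIP differed in another way, at 5.79, 8.78, 8.19, 40.6 and 21.7 CPM untreated and 73.2, 81.6, 33.1, 101 and 113 CPM treated, with WT5 the highest untreated clone (adjusted p = 0.00877, and 0.0206 without WT1, 0.0271 without WT3, 0.0309 without WT4 and 0.0356 without WT6).

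The share of promoters with an interferon-stimulated response element differed with the size of the rise. The 250 bases before each RefSeq start site were searched, and 14344 of 19522 genes tested had at least 1 such window, 20353 in all. A response element was in 27.3% of windows of genes with a log2 fold change over 7, 28.2% at 5 to 7, 19.4% at 3 to 5, 13.2% at 2 to 3 and 5.08% at 1 to 2, against 2.48% of all windows and 1.69% of those of genes called lower. The gamma-activated site was in 18.2%, 10.3%, 13.6%, 9.89% and 5.63% of windows in the same order, against 5.62% of all. The ATF4 site, searched after the amino acid genes had been seen, was in 4.55%, 7.69%, 9.71%, 5.49% and 6.53% of windows in that order, against 2.04% of all windows and 1.32% of those of genes called lower. Among the named genes called higher it was in a window of CHAC1, ASNS, FGF21, GARS1, SLC1A5, ATF3, ALPL, GBP1, JAK2, IFIT3 and KLHDC7B. Other amino acid genes named above, TRIB3, DDIT4, SESN2, PSAT1, ATF4, SLC7A5 and SLC3A2, had windows without a match to it. The heat-shock element, searched as 3 blocks of alternating GAA and TTC with any 2 bases between, on both strands, was in 2 of 532 windows of genes called lower (0.38%) and 0.35% of all. The classes over 7 and of 5 to 7 hold 22 and 39 windows, and a match is not a bound site.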

How the data were processed

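Stranded poly(A) RNA libraries of 5 U2OS WT clones, untreated and after IFNγ, were analysed. The authors aligned reads to GRCh38 with STAR 2.7.9a and kept unique mappers. They deposited raw counts per RefSeq gene from featureCounts 2.4.0, without normalization. The strand setting is not given in the sources used here. 0 sample columns stayed unmatched, and the 10 KO libraries entered 1 alternative only.

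R 4.3.3 and edgeR 4.0.16 were used, with the filter on low counts, TMM scaling and the robust quasi-likelihood test with the clone as a block. P values were adjusted by the Benjamini-Hochberg procedure across the 19522 genes tested. The script was tested on simulated data. The study used DESeq2, here an alternative (1.42.0), as were other scalings, no block, no filter, all 20 libraries, other cut-offs and leaving out each clone. Errors are given as SDs over clones. The standard error from the F statistic was smaller than that of the clone responses for some genes near 0 untreated, such as CXCL10, and larger for others, such as IDO1 (0.26 against 0.0811). The treated and untreated library of a clone deviated together from their group means (Pearson's r from 0.787 to 0.893 across genes, against -0.491 to 0.152 for libraries of other clones), and the pairing comes from the clone names in the labels. TPM were computed from the counts and the exon length in the count table. RefSeq promoters on GRCh38.p14 were used.

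The gene lists and comparisons were chosen with earlier results of these data known. Named are, in each list, the 3 called genes with the largest change, 13 further genes (among them CIITA, IRF1, IFNGR1, IFNGR2, JAK2, SOCS1, B2M, CD74, MYC, CDKN1A and ZBTB48), the 10 largest separated rises and falls, the 5 most and least even genes, and the 5 highest called genes outside the lists. Other names were chosen after their values were seen, as stated, and some genes are not reported here. Total counts limit the precision, and 3 counts per library served as the floor, which covers counting error only.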

Additional observations from a re-analysis of the deposited data

Results flagged for a closer look

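In 131 sets of 5 clones, the gap between 1 clone and the rest was compared with the range of the set. In 9 of them 1 clone was set apart by Dixon's criterion, where a rate of 5% gives about 6.6. The sets were not chosen at random: APOL1, for instance, was named for its uneven clones. The 6.6 is therefore only a rough guide. Log2 responses set apart were those of CD74 in WT4 (8.39 against 10.05 to 10.66 in the other clones), PSMB8 in WT6 (3.62 against 2.60 to 2.87), CHAC1 in WT1 (5.40 against 3.35 to 3.67), DDIT4 in WT6 (2.34 against 3.12 to 3.23), APOL1 in WT6 (7.85 against 4.72 to 5.43) and SLC1A5 in WT1 (2.60 against 1.54 to 1.85). So were the median responses of the DNA replication list in WT6 (-0.13 against 0.06 to 0.13) and of the cholesterol synthesis list in WT5 (-0.14 against -0.38 to -0.31). The untreated library of WT4 had 46652300 counts against 57068700 to 58996500 in the other untreated libraries. With 1 library per clone and treatment none of these differences could be tested.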

How the results depend on the processing

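Interferon-list members called higher numbered 110 to 179 over all alternatives. Without the pairing, that is with no replicate block, 585 genes were called (485 higher, 100 lower), and 23 of the 121 named genes called lost their call. DESeq2 with shrunken fold changes and no pairing called 687 (556 higher, 131 lower, 8 over 32-fold), and shrinkage took the log2 fold change of CXCL9 to 0.62. The complement list had 4 and 5 members called higher in these unpaired fits and the heat-shock list 3 and 3 lower, and ALPL, POSTN, GDF15 and SDF2L1 were called in neither. Without a cut-off on size 6693 genes passed (3352 higher, 3341 lower) and 138 members of the other lists. The glmTreat test against 2-fold called 419 (343 higher, 76 lower), 12 of them in the other lists, by its stricter null. Leaving out each clone gave 1193 to 1383 genes (766 to 845 higher, 427 to 538 lower). Every count stayed within 1.5 times with library totals, with size factors from DESeq2 or its paired test, with no filter, with all 20 libraries and with an adjusted p under 0.05. Without the filter, 93 genes had a p too small to be held and the standard error of HLA-DPB1 was 0.09 against 0.89; the cause was not tested. The log2 fold changes of IFNGR2 and CDKN1A, neither called and both just below 0, changed sign: IFNGR2 ran from -0.089 without WT1 to 0.067 without WT5 and was 0.014 without WT6, and CDKN1A ran from -0.134 without WT5 to 0.050 without WT3 and was 0.045 without WT6. Depth limits genes near the floor, whose untreated level and so whose fold is loosely set.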
